A study of Mus musculus with 4 samples.

Results

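The ligands and receptors of the epidermal growth factor receptor (EGFR) family were followed in single lung cells of young and aged mice after mechanical ventilation. The group was set by name and held 9 of the 32285 genes counted, namely the 6 ligand genes Areg, Ereg, Hbegf, Tgfa, Btc and Nrg1 and the 3 receptor genes Egfr, Erbb2 and Erbb3. No measured value entered the rule that set them, but they were chosen with earlier results of these data known. scRNA-Seq was performed on 4 libraries of wild-type male C57BL/6 mice kept on a restricted diet, young (2 to 3 months) or aged (22 months), each nonventilated or ventilated for 3 h. Each library held cells from the left lung lobe of 3 pooled mice, so each group was 1 sample and the spread between mice could not be seen. Ventilated mice were anesthetized, given analgesia and vascular lines, and ventilated with pure oxygen at a tidal volume of 20 mL/kg, whereas nonventilated mice had none of these, so the effect of stretch cannot be told apart from those of anesthesia, oxygen and surgery. The tidal volume was capped, so heavier mice received less per kg of body weight. The study reports that aged mice were in general heavier than young mice, but gives no weights for the mice pooled here. Between the ventilated libraries, the effect of age thus cannot be told apart from that of the volume per kg.

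EGFR ligands are made as proteins anchored in the cell membrane, and proteases of the ADAM family cut them free so that they can bind receptors on the same cell or on neighbouring cells. EGFR binds most of the ligands directly, ERBB3 binds neuregulins but has little kinase activity of its own, and ERBB2 has no known ligand and acts as the partner of the other receptors. In the lung the family is known for epithelial repair after injury, for signals between epithelium and fibroblasts and, through amphiregulin from innate lymphoid cells, for tissue protection.

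By the GENCODE M21 annotation of GRCm38, the same build as mm10, Ereg, Areg and Btc lie within 375.5 kb of chromosome 5 (chr5:91027464-91402994) together with Epgn, a further ligand gene. Promoter sequences from RefSeq (GRCm38.p6) were matched for 5 of the 9 members. Those of Areg, the ligand whose comparison between ages turned on which cells were kept, and of Egfr, the receptor shared by most of the ligands, are shown as the 250 bases before the annotated start, 5′ to 3′. Areg is on the plus strand at chr5:91139349-91139598 and Egfr on the plus strand at chr11:16751953-16752202. Capitals mark matches to the motifs searched on both strands, which were AP-1 (TGACTCA), CRE (TGACGTCA), TEAD (GGAATG), GC box (GGGCGG) and TATA box (TATAAA).
Areg: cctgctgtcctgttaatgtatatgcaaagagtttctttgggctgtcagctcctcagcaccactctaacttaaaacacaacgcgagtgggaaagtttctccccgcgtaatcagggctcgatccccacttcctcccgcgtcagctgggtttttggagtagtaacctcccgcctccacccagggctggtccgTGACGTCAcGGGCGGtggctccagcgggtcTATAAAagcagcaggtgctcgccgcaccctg
Egfr: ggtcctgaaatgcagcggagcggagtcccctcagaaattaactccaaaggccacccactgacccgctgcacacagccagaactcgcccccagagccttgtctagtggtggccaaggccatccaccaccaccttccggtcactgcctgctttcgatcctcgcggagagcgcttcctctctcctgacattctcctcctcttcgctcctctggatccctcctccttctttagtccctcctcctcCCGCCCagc
The Areg promoter held a CRE 61 to 54 bases, a GC box 52 to 47 bases and a TATA box 31 to 26 bases before the start. The Egfr promoter held 1 GC box on the other strand (CCGCCC), 9 to 4 bases before the start, and had a GC content of 60.8%, against 57.2% for Areg and a median of 52.4% over 32851 promoters. Of those promoters 4.46% held AP-1, 1.55% CRE, 12.6% TEAD, 32.7% a GC box and 12.4% TATAAA. A match of letters is a description of the sequence and was not tested as a binding site.

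Cells with 200 to 5000 genes, at most 10% mitochondrial unique molecular identifiers (UMIs, each standing for 1 captured transcript) and no more than 28597 UMIs, the 93rd percentile, were kept. Young lungs gave 2533 nonventilated and 2976 ventilated cells and aged lungs 2480 and 2171, with median UMIs per cell from 7871 to 9104. Only 8 barcodes of kept cells occurred in more than 1 library. Clusters were named by their markers and joined into 18 classes, of which 17 held at least 50 cells, and all class names below mean cells like that type. The alveolar type II class had a median of 1626.5 UMIs per cell. At a finer resolution it split into 76 cells like alveolar type II (median 17683.5 UMIs) and 312 cells of few UMIs (median 1234.5). The marker rule named the latter alveolar type I, while airway and epithelial genes such as Scgb1a1 and Krt8 led them. Most cells of the alveolar type II class were thus not named alveolar type II at that resolution.

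Levels are given as UMIs of the gene per 1000000 UMIs of the class in that library (CPM). Where 4 levels follow each other, young lungs come before aged lungs and, at each age, nonventilated before ventilated. A ratio of 2 levels is followed by its exact 95% counting interval, which covers counting error only, since there were no replicate libraries. A gene was called higher or lower where at least 1 of the 2 sums held 20 UMIs, the levels differed by more than 2-fold and the interval left out 1. No p-value can be had from 1 library per group. In sums over all cells of a library, fewer cells of a type and less RNA per cell cannot be told apart. Levels in B or plasma cells serve as the background of free RNA, except for Erbb3. Over the 4 libraries that class (325 cells, median 8709 UMIs) held 0 UMIs of Ereg, Btc and Egfr, 1 of Tgfa and of Erbb2, 3 of Areg, 5 of Nrg1, 6 of Hbegf (1.82 CPM) and 14 of Erbb3 (4.25 CPM). The Erbb3 level there was above that over all cells of every library (2.44, 3.07, 1.98 and 2.45 CPM). Its UMIs lay in the aged libraries only (4 and 10).

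More members were higher after ventilation in the young library pair than in the aged pair. Over all cells, 6 of 9 members were called higher in young ventilated than in young nonventilated lungs and 0 lower, where 6.07% of all genes tested were called higher and 17.8% lower. Of the 6, the call of Btc rested on 1 cell, as described below. The median log2 ratio of the 9 members was 1.53 and that of all genes tested -0.25. In aged lungs 1 of 8 members tested, Hbegf, was called higher and 0 lower, against 4.12% and 11.3% of all genes. Without ventilation, Areg, Ereg and Nrg1 were called higher in the aged than in the young library and no member of the 8 tested was called lower, where 3.09% and 1.84% of all genes were. Between the ventilated libraries 0 members of 9 were called higher in aged lungs and 4, Areg, Ereg, Btc and Nrg1, lower, where 3.93% and 2.78% of all genes were. The counts for Areg rest on the upper limits on genes and UMIs per cell, since without them its ratio of aged to young was 1.05 in the nonventilated and 1.25 in the ventilated libraries and its ratio after ventilation in aged lungs was 5.04.

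Within cell classes the members gave 153 pairs of gene and class. In young lungs 45 pairs held enough UMIs, and 30 were called higher and 4 lower after ventilation, against 9.15% and 14.7% of all gene and class pairs. Their median log2 ratio was 2.05. Pairs could be tested through the ventilated sum alone, as Areg in alveolar type I cells was (50 against 0 UMIs). Such pairs raise that median, which was not computed over all gene and class pairs. The shares over all pairs came from the same rule. In aged lungs 12 of 34 pairs were called higher and 5 lower, against 5.58% and 10% of all pairs, with a median of 0.29. Between the nonventilated libraries 7 of 29 pairs were called higher in aged lungs and 5 lower (3.48% and 2.71% of all pairs). Between the ventilated libraries 4 of 46 were called higher in aged lungs and 18 lower (4.11% and 4.49% of all pairs).

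**Figure D1:**
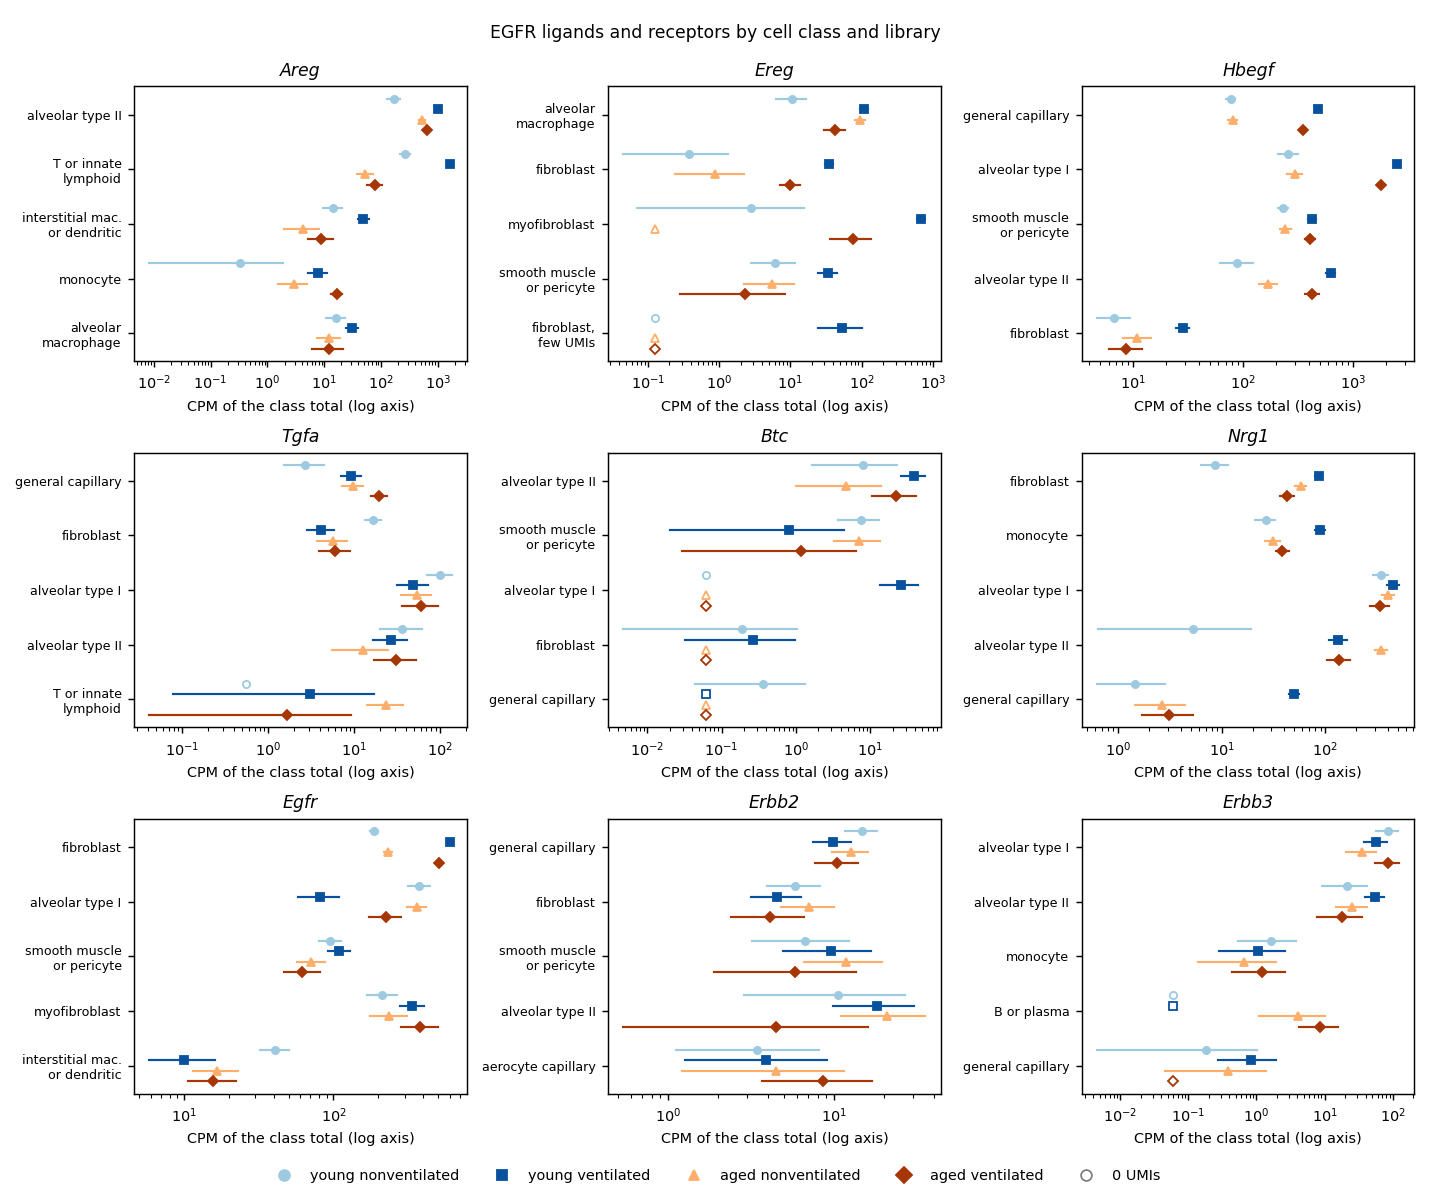
CPM of each member (log axis) in the 5 counted classes that held most of its UMIs, with 1 point per library and bars for the exact Poisson 95% interval. Open symbols at the left mark sums of 0 UMIs, which have no place on a log axis. In general capillary cells Hbegf was at 485 and 351 CPM in the ventilated libraries and at 77.8 and 80.8 CPM in the nonventilated libraries.

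Areg encodes amphiregulin, a ligand made by injured epithelium and by innate lymphoid cells. Among kept cells its level over all cells was 9.27, 57.2, 19.3 and 21.7 CPM. The young ventilated library stood above the other three. The ratio to its nonventilated control was 6.17 (5.36 to 7.13) in young and 1.13 (0.99 to 1.28) in aged lungs. The highest pooled level was in the alveolar type II class (646 CPM over the 4 libraries, 613 to 681), followed by T or innate lymphoid cells (337 CPM, 313 to 363) and basophils (271 CPM, 207 to 348), and these last intervals overlapped. The order of the first pair held in the aged libraries, whereas in both young libraries T or innate lymphoid cells were above the alveolar type II class. In the young ventilated library this rested on 1 T or innate lymphoid cell, described below. So did the pooled place of T or innate lymphoid cells above basophils. Alveolar type I cells came next at 30.1 CPM (22.3 to 39.6).

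In the alveolar type II class Areg was at 165, 988, 527 and 633 CPM. Both aged libraries were above the young nonventilated library, and ventilation gave a ratio of 5.97 (4.61 to 7.84) in young and 1.2 (1.02 to 1.41) in aged lungs. The class took in 0, 7, 6 and 4 ciliated-like cells, described below, so its mix of cells differed between the libraries. In alveolar type I cells Areg was found in the young ventilated library only, at 98.6 CPM, with 22 of its 50 UMIs in 1 cell. The other three libraries held 0 UMIs. Taken at a floor of 3 UMIs, these sums allow levels up to 7.92, 6.21 and 10.2 CPM in the order given above. Against that floor the young ventilated level was at least 12.45-fold higher than the young nonventilated one, and the aged ventilated level at least 9.7-fold lower than the young ventilated one. The exact intervals are wider. That of the young ratio began at 9.76, and that of the ratio of aged to young ventilated lungs ended at 0.131.

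T or innate lymphoid cells had Areg at 262, 1604, 52.8 and 77.3 CPM. Ventilation gave a ratio of 6.11 (4.88 to 7.73) in young and 1.46 (0.945 to 2.28) in aged lungs. The young call was lost when the cells with the highest Scrublet (doublet) scores were left out. The aged nonventilated level was 4.97-fold lower (3.41 to 7.35) than the young one, and the aged ventilated level was 20.7-fold lower (15.4 to 28.6) than the young ventilated one. A single young ventilated cell held 268 of the 519 UMIs of its library. Cells with UMIs of Il1rl1, the IL-33 receptor, or Gata3, the factor of type 2 lymphocytes, held 331 UMIs where Cd3 was absent and 352 where it was present, out of 698. Of the 352, 275 lay in 2 young ventilated cells, and the cell with 268 UMIs was 1 of them. The cells without Cd3 numbered 14 and 9 in the young libraries and 2 and 3 in the aged libraries. The part of their number in the lower aged level was not tested.

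Basophils, with 18, 20, 22 and 6 cells, had Areg at 0, 559, 379 and 0 CPM from 0, 32, 29 and 0 UMIs. Against the floor of 3 UMIs the young ventilated level was at least 10.9-fold higher than the young nonventilated one, and the exact interval of that ratio began at 8.4. Other myeloid cells held little Areg. In monocytes it was at 0.331, 7.82, 2.89 and 16.6 CPM, higher after ventilation at both ages, by 23.6-fold (3.92 to 963) and 5.75-fold (3.19 to 11.2), the former from 1 UMI. Among the clusters joined into classes, a cluster of classical monocytes with 107 and 142 cells was present in the ventilated libraries only. At the finer resolution, however, cells named classical monocytes were found in every library, with 109, 170, 123 and 161 cells. They included a cluster with 105, 1, 90 and 3 cells, which lay mostly in the nonventilated libraries. Interstitial macrophages or dendritic cells had 14.2, 48.9, 4.24 and 8.82 CPM, so that the young ventilated library was 3.46-fold higher (2.23 to 5.51) than its control and the aged ventilated one 5.55-fold lower (3.26 to 9.97) than the young ventilated one. Alveolar macrophages had 16.3, 31.2, 12.1 and 12.2 CPM. There the aged ventilated level, from 11 UMIs, was 2.56-fold lower (1.34 to 5.38) than the young ventilated one, a call that 3 of 12 alternatives ended. Single cells decided 3 other sums, with 29 of 35 UMIs in aged ventilated neutrophils, all 29 UMIs in aged nonventilated basophils and all 26 UMIs in aged nonventilated fibroblasts.

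The upper limits on genes and UMIs removed 441, 367, 565 and 405 barcodes that were otherwise within the limits, and these barcodes changed the comparison of Areg between ages. With them included, Areg over all cells was at 24.9, 105, 26 and 131 CPM. The ratio after ventilation was then 4.23 (3.94 to 4.54) in young and 5.04 (4.72 to 5.39) in aged lungs, and the ratio of aged to young was 1.05 (0.957 to 1.14) without and 1.25 (1.2 to 1.3) with ventilation. Both ventilated libraries thus lay above both nonventilated libraries. Most of the added UMIs lay in a cluster of 121 cells that was looked for after the levels had been seen. Its cells held the markers Foxj1, Dnah12, Tmem212, Ccdc153, Tppp3, Dnah5, Cfap43 and Rsph1 in 90.9% to 99.2% of cells, and it was named ciliated-like.

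Ciliated-like cells held 8068 of 11292 Areg UMIs (71.4%), and 104 of the 121 were past the upper limits. Doublets cannot be told apart from large single cells among them. The other 17 (0, 7, 6 and 4 by library) fell in the alveolar type II class, where they held 451 of its 1440 Areg UMIs. They also held 16 Btc and 104 Nrg1 UMIs of that class. The 4 libraries had 18, 32, 36 and 35 ciliated-like cells with Areg at 459, 2199, 327 and 2826 CPM. Areg was found in 15 of 18, 32 of 32, 32 of 36 and 35 of 35 of these cells. Ventilation gave a ratio of 4.79 (4.38 to 5.25) in young and 8.65 (7.88 to 9.52) in aged lungs. Without upper limits, alveolar type II-like cells had a ratio of 2.35 (1.98 to 2.8) in young and 1.27 (1.09 to 1.49) in aged lungs.

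**Figure D2:**
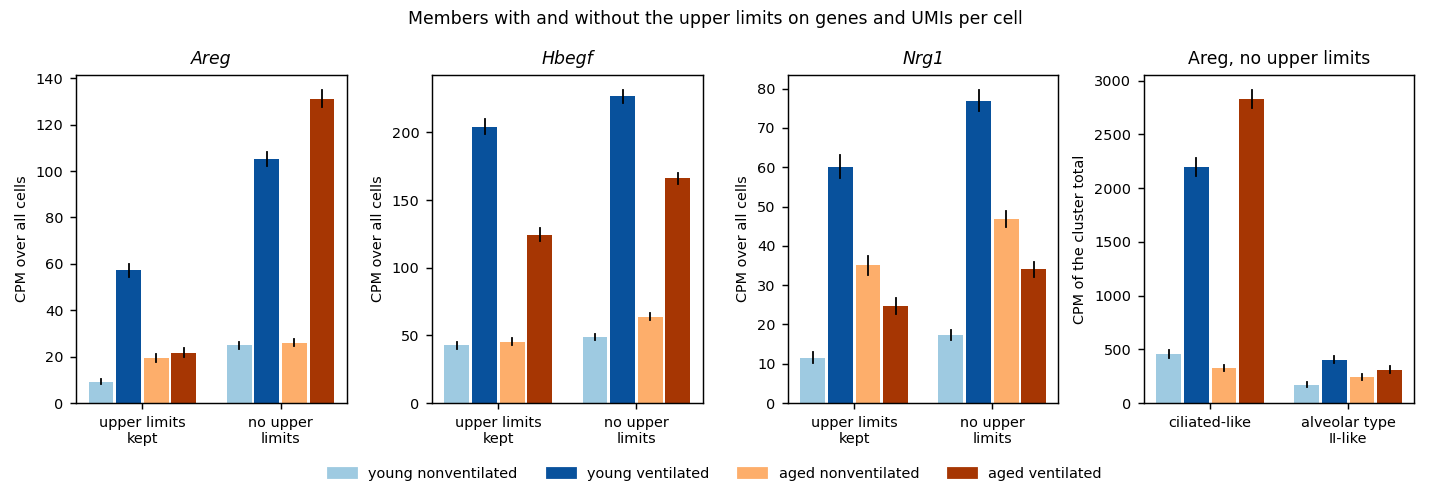
CPM of Areg, Hbegf and Nrg1 over all cells with and without the upper limits on genes and UMIs per cell, and CPM of Areg in ciliated-like and alveolar type II-like clusters without limits, with 1 bar per library and lines for the exact Poisson 95% interval. Aged ventilated Areg went from 21.7 to 131 CPM over all cells when the limits were lifted, while the order of the libraries for Nrg1 stayed the same.

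Other members were also found in ciliated-like cells. They held 43.8% of Btc, 34.9% of Erbb3, 23.8% of Nrg1, 18.8% of Tgfa, 12.5% of Hbegf and 0.49% of Ereg UMIs without limits. Tgfa was at 16.7, 77.4, 18.1 and 64.4 CPM there, higher in both ventilated libraries. Hbegf was at 135, 528, 406 and 721 CPM and Nrg1 at 160, 420, 337 and 305 CPM, and for Nrg1 the ratio after ventilation was 2.62 (2.22 to 3.1) in young and 0.905 (0.796 to 1.03) in aged lungs.

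Ereg encodes epiregulin, a ligand of EGFR and ERBB4. Over all cells it was at 1.24, 28.2, 7.05 and 4.03 CPM. Ventilation gave a ratio of 22.7 (15.8 to 33.9) in young lungs and 0.572 (0.439 to 0.742) in aged lungs. The aged nonventilated level was 5.68-fold higher (3.84 to 8.67) than the young one. Without the upper limits these ratios were 9.19 (7.55 to 11.3), 0.613 (0.52 to 0.722) and 3.51 (2.84 to 4.37), in the same directions. Pooled over the libraries, myofibroblasts had the highest level (234 CPM, 205 to 265), then alveolar macrophages (68.9 CPM, 62.6 to 75.6), while fibroblasts (14.4 CPM), fibroblasts of few UMIs (13 CPM) and smooth muscle cells or pericytes (12.3 CPM) had overlapping intervals. The order of the first pair came from the ventilated libraries, and in both nonventilated libraries alveolar macrophages were above myofibroblasts. Neutrophils, T or innate lymphoid cells, B or plasma cells, basophils and lymphatic and aerocyte endothelium held 0 UMIs.

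The mesenchyme and the alveolar macrophages gave different patterns of Ereg. In fibroblasts it was at 0.374, 35.1, 0.88 and 9.94 CPM, so that both ventilated libraries were above both controls. The ratio was 93.9 (25.7 to 779) in young lungs, from 2 UMIs in the control, and 11.3 (4.09 to 43.4) in aged lungs. The young ventilated UMIs lay in 32 of 496 cells. The 41 aged ventilated UMIs lay in 6 of 257 cells, 16 of them in 1 cell, and not every alternative kept the aged call. Adventitial fibroblasts, the cells around vessels and airways, held 2, 134, 4 and 38 of these UMIs. In myofibroblasts it was at 2.8, 691, 0 and 74.8 CPM from sums of 1, 230, 0 and 10 UMIs, with 56.8% and 18.8% of cells positive in the ventilated libraries. The latter were 3 of 16 cells, and 1 of them held 8 of the 10 UMIs. At the floor of 3 UMIs the sum of 0 allows a level up to 14.5 CPM. Smooth muscle cells or pericytes had 6.06, 33.5, 5.52 and 2.34 CPM, 5.52-fold higher (2.65 to 12.9) after ventilation in young lungs, a call that was lost without the cell that held most UMIs.

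In alveolar macrophages, the resident phagocytes of the airspace, Ereg was at 10.5, 108, 94.1 and 42.1 CPM. Here the young nonventilated library was the lowest. Ventilation gave a ratio of 10.3 (6.36 to 17.7) in young lungs, while in aged lungs the level was 2.24-fold lower (1.56 to 3.28) after ventilation. Without ventilation the aged level was 9-fold higher (5.51 to 15.6) than the young one. The lower aged level after ventilation was no longer called without the upper limits, with a mitochondrial limit of 5% or with cells thinned to 1000 UMIs, and the other two calls were lost with thinned cells only. One aged nonventilated cell held 54 of its 155 UMIs and one young ventilated cell 50 of its 231.

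Hbegf encodes heparin-binding EGF-like growth factor, which held the most UMIs of the 6 ligands. Over all cells it was at 42.7, 204, 45.4 and 124 CPM, and the ratio after ventilation was 4.79 (4.48 to 5.13) in young and 2.74 (2.56 to 2.94) in aged lungs. The nonventilated libraries differed by a ratio of 1.06 (0.976 to 1.16). By pooled level, alveolar type I cells came first (1229 CPM), followed by the alveolar type II class (368 CPM, 344 to 395), smooth muscle cells or pericytes (316 CPM, 301 to 333) and general capillary cells (250 CPM, 244 to 257), whose intervals did not overlap. The first place held in every library, but the order of the other three changed. Smooth muscle cells or pericytes were above the alveolar type II class in both nonventilated libraries, and general capillary cells were above smooth muscle cells or pericytes in the young ventilated library.

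In alveolar epithelium and capillary endothelium the ventilated libraries were above the controls at both ages, and in lymphatic endothelium in young lungs only. General capillary cells, the endothelium that renews the capillary bed, had Hbegf at 77.8, 485, 80.8 and 351 CPM, with ratios of 6.23 (5.63 to 6.92) in young and 4.34 (3.9 to 4.84) in aged lungs. This class included 318 venous-like cells, and at the finer resolution most of its other cells fell in a pair of clusters that differed by condition, one with 582, 16, 497 and 60 cells and one with 6, 633, 12 and 303 cells of the 4 libraries. Alveolar type I cells, the thin cells of gas exchange, had 259, 2509, 296 and 1801 CPM, with ratios of 9.7 (7.89 to 12) and 6.08 (5.05 to 7.37). Every alveolar type I cell of both ventilated libraries, 36 and 19 cells, held Hbegf UMIs. Aerocytes, the capillary endothelium specialised for gas exchange, had 7.61, 69.5, 10.1 and 72.8 CPM, with ratios of 9.13 (4.87 to 19) and 7.21 (3.58 to 16.4). The class named aerocytes of few UMIs had 38.8, 283, 32.3 and 132 CPM, with ratios of 7.28 (3.34 to 18.8) and 4.11 (1.39 to 16.5). At the finer resolution both calls were lost, and the class split into 334 cells named general capillary and 237 named aerocyte. Most of its cells were thus not named aerocyte at that resolution. Lymphatic endothelium had 10.6, 82.8, 41.2 and 10.9 CPM from 3, 22, 9 and 2 UMIs. It was 7.82-fold higher (2.35 to 40.8) after ventilation in young lungs, which was not called without the cell that held most UMIs, and the aged pair held too few UMIs to be tested.

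The alveolar type II class had Hbegf at 89.3, 631, 171 and 429 CPM, with ratios of 7.07 (4.99 to 10.3) and 2.51 (1.97 to 3.21), the latter not called without the upper limits or at the finer resolution. Without the upper limits this class also held the ciliated-like cluster. Smooth muscle cells or pericytes had a high level in every library, 234, 427, 244 and 405 CPM, with ratios below the 2-fold limit at both ages. Fibroblasts differed between the ages, with 6.73, 28.6, 11 and 8.72 CPM. There the ratio was 4.24 (2.97 to 6.22) in young and 0.793 (0.502 to 1.24) in aged lungs, and the aged ventilated level was 3.28-fold lower (2.29 to 4.8) than the young ventilated one. Myofibroblasts had 36.4, 81.2, 14.5 and 15 CPM from 13, 27, 3 and 2 UMIs, 2.23-fold higher (1.11 to 4.7) after ventilation in young lungs, and this call too was lost without the cell that held most UMIs. In monocytes Hbegf was at 0.331, 7.82, 1.34 and 3.96 CPM, below its level in B or plasma cells in the nonventilated libraries.

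Tgfa encodes transforming growth factor alpha. Over all cells it hardly differed between libraries, at 6.91, 5.93, 5.93 and 7.1 CPM, and no comparison was called. Alveolar type I cells had the highest pooled level of the counted classes (64.3 CPM, 52.7 to 77.7), with 100, 49.3, 53.9 and 61 CPM. The young ventilated level there was 2.03-fold lower (1.2 to 3.52) than its control, just past the 2-fold limit, and 5 of 11 alternatives ended that call. In general capillary cells it was at 2.71, 9.33, 9.8 and 19.6 CPM, with ratios after ventilation of 3.44 (1.92 to 6.55) in young and 2 (1.4 to 2.88) in aged lungs, the latter at the limit and lost under 5 of 12 alternatives. The aged level was 3.61-fold higher (2 to 6.91) than the young one without and 2.1-fold higher (1.49 to 2.99) with ventilation. In fibroblasts it was at 16.8, 4.14, 5.72 and 6.06 CPM, and only the young nonventilated library stood apart, 4.07-fold (2.68 to 6.33) above the young ventilated one.

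Btc encodes betacellulin and was rare, with 91 UMIs in all. Over all cells its level was 0.703, 1.75, 0.536 and 0.526 CPM, 2.49-fold higher (1.41 to 4.61) after ventilation in young lungs. The alveolar type II class held 3, 30, 3 and 10 of its UMIs, 4.93-fold higher by level (1.53 to 25.3) after ventilation in young lungs. Of these, 0, 18, 0 and 6 lay in the 312 cells of few UMIs. Smooth muscle cells or pericytes held 11, 1, 9 and 1, so that there the ventilated libraries were the lower ones at both ages, with too few UMIs for a test. A further 13 UMIs were in alveolar type I cells, all in 1 cell of the young ventilated library. That cell held 13 of the 49 Btc UMIs of its library. Without those 13 UMIs the level over all cells would be less than 2-fold above its control. The young call over all cells thus rests on 1 cell.

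Nrg1 encodes neuregulin 1, the ligand of ERBB3. Over all cells it was at 11.5, 60.2, 35 and 24.7 CPM, with a ratio after ventilation of 5.25 (4.62 to 5.99) in young and 0.705 (0.632 to 0.785) in aged lungs. The aged nonventilated level was 3.06-fold higher (2.67 to 3.51) than the young one. Pooled levels were highest in alveolar type I cells (394 CPM, 364 to 425) and the alveolar type II class (172 CPM, 156 to 190), and fibroblasts (52.9 CPM, 49.9 to 56.1) and monocytes (45.9 CPM, 42.7 to 49.3) followed. In every library alveolar type I cells came first, and the alveolar type II class was below fibroblasts and monocytes in the young nonventilated one.

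Alveolar type I cells had Nrg1 at 343, 456, 404 and 335 CPM, with no comparison called. In fibroblasts it was at 8.61, 86.9, 58.1 and 42.9 CPM. The young nonventilated library was the lowest by far, and the ratio after ventilation was 10.1 (7.49 to 13.9) in young and 0.739 (0.607 to 0.897) in aged lungs. In monocytes it was at 26.5, 88.6, 30.9 and 38.4 CPM, with ratios of 3.34 (2.61 to 4.32) and 1.24 (0.994 to 1.56). Classical monocytes taken alone had 41.3, 158, 92.7 and 68.6 CPM. Interstitial macrophages or dendritic cells held 1, 28, 11 and 4 UMIs, and the higher young ventilated level was not called without the cell that held most of them.

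Few cells decided Nrg1 in other classes. In general capillary cells it was at 1.45, 49.7, 2.64 and 3.12 CPM, and 282 UMIs of the young ventilated library lay in 5 venous-like endothelial cells, 163 of them in 1 cell. The alveolar type II class had 5.25, 134, 348 and 136 CPM, and 155 of its 218 aged nonventilated UMIs lay in 1 cell. All 218 lay in the 312 cells of few UMIs, and the cells of that library named alveolar type II at the finer resolution held none of them.

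**Figure D3:**
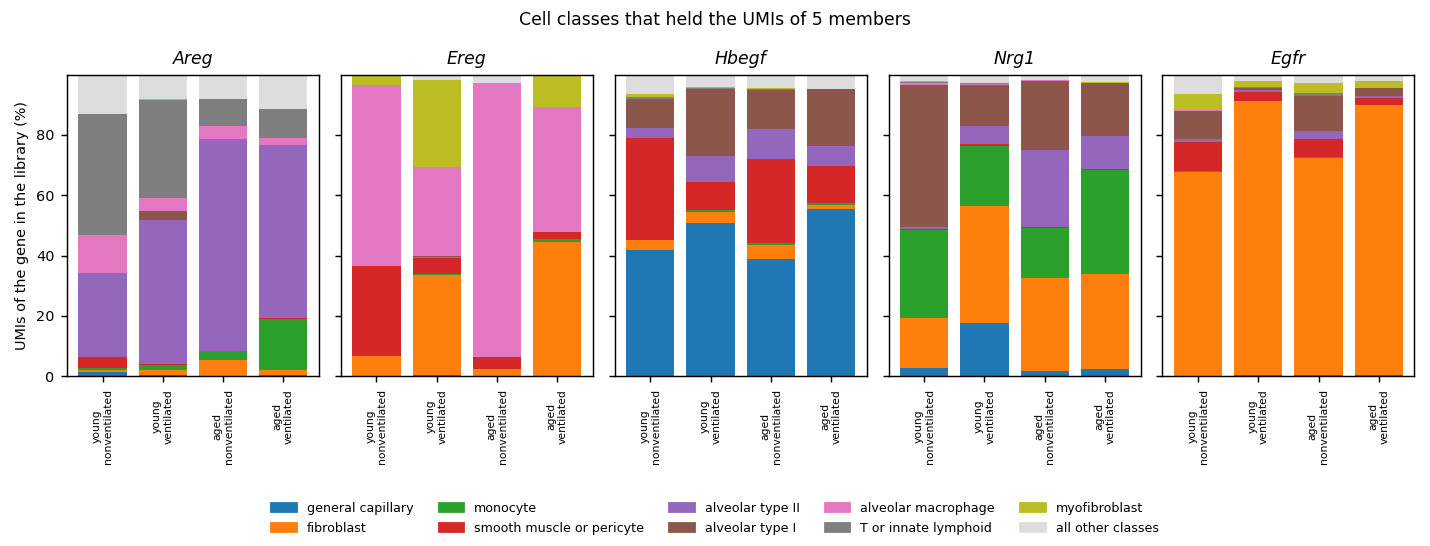
Share of the UMIs of Areg, Ereg, Hbegf, Nrg1 and Egfr (%) that each cell class held in each library, with stacked bars that add to 100%. Over the 4 libraries the alveolar type II class held 51.6% of Areg and fibroblasts 84.5% of Egfr, and alveolar macrophages (40.9%), fibroblasts (28.7%) and myofibroblasts (22.3%) shared Ereg.

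Egfr, the receptor of most of these ligands, had most of its UMIs in fibroblasts. Over all cells it was at 61.3, 177, 60.7 and 103 CPM, with ratios after ventilation of 2.89 (2.73 to 3.07) in young and 1.69 (1.59 to 1.81) in aged lungs. Fibroblasts held 84.5% of its UMIs and had the highest pooled level (404 CPM, 395 to 412), followed by myofibroblasts (280 CPM, 248 to 314) and alveolar type I cells (254 CPM, 231 to 280), whose intervals overlapped. That order came from the ventilated libraries, and in both nonventilated libraries alveolar type I cells had the highest level of the counted classes. Fibroblasts had 187, 603, 233 and 510 CPM, so that both ventilated libraries were above both controls, by 3.22-fold (3 to 3.45) and 2.19-fold (2.03 to 2.36).

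The fibroblast types differed in the size of the Egfr ratio. Alveolar or interstitial fibroblasts had 181, 632, 217 and 520 CPM, with ratios of 3.5 (3.21 to 3.82) and 2.4 (2.19 to 2.63). These cells were a pair of clusters at the finer resolution, one with 6, 443, 2 and 218 cells of the 4 libraries and one with 232, 0, 193 and 2, so the ratios compare different clusters of the same name. Adventitial fibroblasts had 198, 362, 261 and 449 CPM, with ratios of 1.83 (1.57 to 2.13) and 1.72 (1.47 to 2.01), below the 2-fold limit. Young ventilated lungs had 51 adventitial and 443 alveolar or interstitial fibroblasts, against 137 and 238 in their controls, and aged ventilated lungs 37 and 220, against 113 and 195.

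In alveolar type I cells Egfr went the other way. It was at 375, 80.9, 360 and 223 CPM, with the lowest level in the young ventilated library, 4.64-fold (3.25 to 6.73) below its control. In aged lungs the ventilated level was 1.61-fold (1.21 to 2.17) below its control, which was not called. With the upper limits lifted the young difference was smaller, with a log2 ratio of -0.77, and was not called. Between the ventilated libraries the aged level was 2.76-fold higher (1.84 to 4.19). In the alveolar type II class Egfr was at 34.2, 42.8, 59.1 and 26.7 CPM, and the lower aged ventilated level (2.22-fold, 1.13 to 4.67) was called in 4 of 11 alternatives. Interstitial macrophages or dendritic cells had 40.4, 10, 16.5 and 15.6 CPM, 4.03-fold lower (2.37 to 7.27) after ventilation in young lungs. In myofibroblasts, at 213, 337, 237 and 381 CPM, and in smooth muscle cells or pericytes, at 94.9, 109, 71 and 61.9 CPM, no ventilation ratio was called.

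Erbb2 was low and even over all cells, at 6.21, 4.78, 5.89 and 3.99 CPM. General capillary cells held 49% of its UMIs and had 14.6, 9.83, 12.6 and 10.5 CPM, with ratios of 0.672 (0.472 to 0.951) and 0.829 (0.559 to 1.22). No ratio of Erbb2 was called over all cells, in general capillary cells or in fibroblasts, and the other classes held too few UMIs. Erbb3, the receptor of neuregulins, was at 2.44, 3.07, 1.98 and 2.45 CPM over all cells. Its pooled level was highest in alveolar type I cells (61.9 CPM, 50.5 to 75.1) and the alveolar type II class (33.2 CPM, 26.1 to 41.7), the classes with the highest Nrg1. Alveolar type I cells had Erbb3 at 84.5, 57.2, 35.2 and 84.7 CPM from 17 to 32 UMIs per library, with ratios of 0.677 (0.395 to 1.16) and 2.4 (1.25 to 4.74). Without ventilation the aged level there was 2.4-fold lower (1.29 to 4.61) than the young one. The alveolar type II class had 21, 54.4, 25.6 and 17.8 CPM from 8, 42, 16 and 8 UMIs. Its young level was 2.59-fold higher (1.2 to 6.39) after ventilation, and the aged ventilated level was 3.06-fold lower (1.42 to 7.55) than the young ventilated one. Each of these 4 calls of Erbb3 was lost without the upper limits and with thinned cells. Without the upper limits the alveolar type II class also held the ciliated-like cluster.

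The change with ventilation could be set side by side at both ages for 33 pairs of member and class. The aged-minus-young difference of log2 ratios had an interval below 0 in 16 pairs, above 0 in 5 and holding 0 in 12. In young lungs 19 of the pairs were called higher after ventilation and in aged lungs 11, of which 10 were the same pairs. Of all gene and class pairs tested, 9.15% were called higher in young and 5.58% in aged lungs. The differences of log2 ratios were not counted over all genes, so a smaller aged change particular to the members was not tested. For Hbegf in general capillary cells the difference was -0.52 (-0.73 to -0.31) and for Egfr in fibroblasts -0.56 (-0.70 to -0.41). Ereg in fibroblasts was higher at both ages, with the aged ventilated UMIs in 6 cells, and had a difference of -2.76 (-4.88 to -0.65). Nrg1 in fibroblasts had a difference of -3.74 (-4.25 to -3.23), and there the aged ventilated level was below its control. These intervals cover counting error only, and both ages have 1 library per condition.

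**Figure D4:**
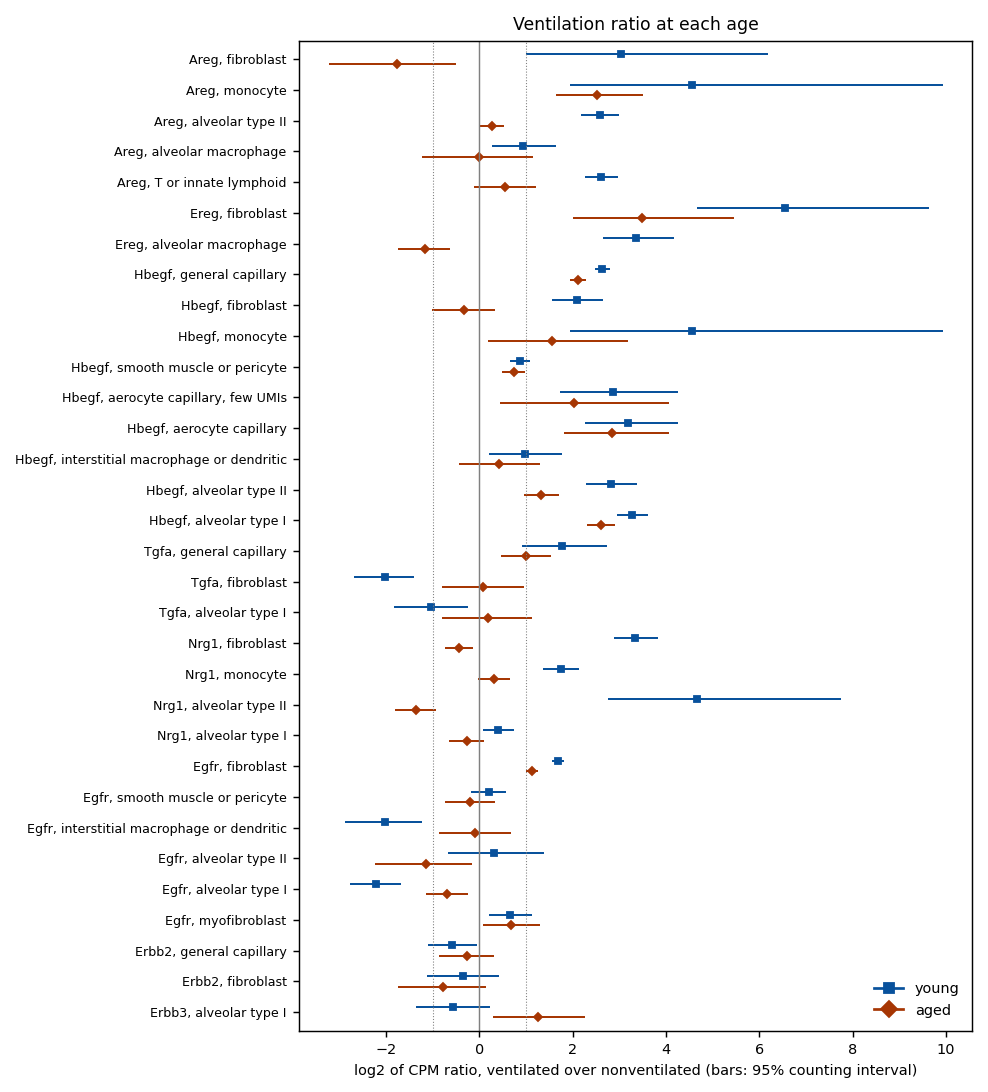
log2 ratio of CPM, ventilated over nonventilated, in young (blue squares) and aged (brown diamonds) lungs for the 32 pairs of member and class tested at both ages with UMIs in all 4 libraries. Bars are 95% counting intervals, the solid line marks equal levels and the dotted lines 2-fold. Hbegf in capillary and alveolar classes and Egfr in fibroblasts lie right of 1 at both ages, while Nrg1 in fibroblasts does so in young lungs only.

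Genes around the pathway were counted over all cells from lists of 69 genes. Of the ERK-responsive genes, which are switched on by the kinase cascade below the receptors, 4 of 14 tested were called higher after ventilation in young lungs and 3 in aged lungs, with 0 lower at either age. Of all genes tested, 6.07% were called higher and 17.8% lower in young and 4.12% and 11.3% in aged lungs, against which the counts of these lists are to be read. The median log2 ratios of the list were 0.16 and -0.04, against -0.25 and -0.20 over all genes tested. Fosl1, an AP-1 subunit, went from 5.05 to 58.8 CPM in young lungs, an 11.7-fold difference (9.69 to 14.1), and from 8.45 to 29.3 CPM in aged lungs, a 3.47-fold one (2.96 to 4.08). Myc, a growth regulator, was 3.36-fold higher (2.91 to 3.89) in young ventilated lungs. Of 19 feedback inhibitors 3 were called higher in young and 1 in aged lungs, and 0 lower, with median log2 ratios of 0.10 and 0.07. Spry4, which restrains ERK signalling, was 2.79-fold higher (2.58 to 3.03) in aged ventilated lungs.

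Among 9 genes of ligand release, 1 was called higher in young and 0 in aged lungs, with median log2 ratios of 0.41 and 0.18. Of 20 adaptors and kinases 0 were called higher and 2 lower at each age, with medians of 0.04 and -0.14. Mapk3, the ERK1 kinase, was 2.21-fold lower (2.09 to 2.35) in aged ventilated lungs. Of the other ligands and the receptor Erbb4, 4 of 6 could be tested, and 2 were called lower in young and 1 in aged lungs, with medians of -1.54 and -0.75. Nrg2, a relative of Nrg1, went from 36.7 to 6.25 CPM in young lungs, 5.87-fold lower (4.98 to 6.94), and from 27.7 to 6.01 CPM in aged lungs, 4.61-fold lower (3.83 to 5.58). Erbb4 was 4.45-fold lower (3.23 to 6.22) in young ventilated lungs. Between the nonventilated libraries 0 genes of these lists were called. Between the ventilated libraries Egf, the founding ligand, was 2.89-fold higher (1.68 to 5.14) and Fosl1 2.01-fold lower (1.83 to 2.2) in aged lungs.

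Genes with the pattern most like a member were ranked by Pearson's r of log2(CPM + 10) over 64 sums of 16 classes and 4 libraries, which share libraries and depth, so r is a description. Among the genes nearest to Egfr were Neo1 (0.90) and Pwwp3b (0.87). Erbb3 was nearest to Prss8 (0.92), Eps8l2 (0.92) and AA986860 (0.92). Among the genes nearest to Nrg1 were Pkp2 (0.82) and AA986860 (0.82). Areg was nearest to Ppp1r14c (0.84), Bspry (0.82) and Kcnk1 (0.80). Hbegf was nearest to Tinagl1 (0.83), Lama5 (0.83) and Pdgfa (0.82). Among the genes nearest to Ereg were its neighbour on chromosome 5, Epgn (0.71), and Gm19610 (0.70), while Tgfa was nearest to Slc44a3, AI661453 and Bend7 and Erbb2 to Sh3d19, Hacd1 and Phldb2.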

How the data were processed

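Per the labels and the submitters' processing notes, the authors counted reads with Cell Ranger 7.0.0 against mm10, and the deposited values are whole-number counts of UMIs, not normalized, for each gene in each barcode. Cells had been cryopreserved, and cells of 3 mice were pooled before each library, so mice cannot be separated. Everything else was computed here from these counts.

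The limits on cells followed the methods of the study. As the 93rd percentile may be taken over all 15428 barcodes (28597 UMIs) or over those left by the other limits (21021 UMIs), the former was used and the latter was tried. Kept cells (10160) held 22814008 to 28010151 UMIs per library. Seurat 5.3.0 in R 4.3.3 log-normalized them and, on 37 principal components of the 2000 most variable genes, found 19 clusters at a resolution of 0.18. The members and genes of the lists were among the genes clustered on, and leaving them out kept 84 of 85 calls. Scrublet marked 38 cells (0.374%), too few to count as doublet detection, so no cell was removed by it, and an alternative left out the 547 highest scores.

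UMIs were summed per library and class with pandas 2.3.3, scipy 1.17.1 and numpy 2.4.6 under Python 3.11.15 (figures with matplotlib 3.10.9, Scrublet from scanpy 1.11.5). Ratios have exact conditional binomial intervals, and levels have exact Poisson intervals. Log2 ratios had 1 UMI added to each sum. Clusters were named by markers, at least 3 of which had to be detected in 20% of cells. Classes were joined, and clusters of few UMIs set apart, by rules set after the clusters had been seen. The call rule was run on simulated counts that held counting error only. Differences between cells or mice were not simulated, so that run cannot show how the rule behaves where they matter.

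All 9 members were counted in every class, and the text gives the classes that held most UMIs or were called, not each value. From the pathway lists, the 2 largest differences in each direction past the call rule were named in each comparison over all cells, and the 3 genes most like each member with at least 200 UMIs. Some of the latter are not reported here. Finer cell types and the ciliated-like cluster were examined after levels had been seen. The members and lists were chosen with earlier results of these data known.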

Additional observations from a re-analysis of the deposited data

Results flagged for a closer look

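In 7 sums the change with ventilation went one way in young and the other way in aged lungs beyond the counting interval. With 1 library per group this difference was not tested, and the values are aged minus young differences of log2 ratios. They were -5.26 for Ereg over all cells, -4.42 for Ereg in alveolar macrophages, -2.89 for Nrg1 over all cells, -3.74 for Nrg1 in fibroblasts, -5.44 for Nrg1 in the alveolar type II class, -4.13 for Areg in fibroblasts and -8.76 for Areg in basophils. The last 3 rest on a single aged nonventilated cell, which held 155 of 218, 26 of 26 and 29 of 29 UMIs of its sum.

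The barcodes past the upper limits on genes and UMIs, which the report's comparisons did not use except where stated, also held members at levels that differed with ventilation. In these barcodes Areg was 4.06-fold higher after ventilation in young and 8.59-fold in aged lungs, and Hbegf 4.65-fold and 2.59-fold. In young lungs Nrg1 was 4.15-fold, Ereg 3.97-fold, Btc 3.07-fold and Egfr 2.12-fold higher.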

How the results depend on the processing

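Of 85 pairs of member and class called in any of the 4 comparisons, 17 were called under every alternative that gave a value. They were 9 of 34 for young ventilated over young nonventilated lungs, 3 of 17 for the aged pair, 1 of 12 between nonventilated and 4 of 22 between ventilated libraries. In the young pair these were Hbegf in general capillary cells, alveolar type I cells and the alveolar type II class, Nrg1 in general capillary cells, fibroblasts and monocytes, Egfr and Ereg in fibroblasts and Areg in the alveolar type II class, and in the aged pair Hbegf in general capillary and alveolar type I cells and Egfr in fibroblasts. Between nonventilated libraries it was Nrg1 in fibroblasts, and between ventilated libraries Areg in T or innate lymphoid cells, Ereg in fibroblasts and Nrg1 in general capillary cells and monocytes. No alternative set venous-like cells apart from the general capillary class, where they held most young ventilated Nrg1 UMIs. For Areg, the alveolar type II class held 17 ciliated-like cells with the limits and took in the whole cluster once the upper limits were lifted. A further 19 calls were lost only when each cell was thinned to 1000 UMIs. Counts of alternatives per call leave out the setting of at least 50 UMIs, which kept 54 of the 85 calls. Thinned cells gave 12 called pairs in the young comparison, 3 in the aged one, 2 between nonventilated and 5 between ventilated libraries. Not all of these were among the 85. With at least 50 UMIs asked for, 22 pairs were called in the young and 9 in the aged comparison. In the aged comparison 10 pairs were called with a mitochondrial limit of 5% and 10 without the cell that held most UMIs, an alternative chosen after seeing the data. Median-of-ratios size factors, set against class totals, shifted with ventilation by -0.40 to 0.14 in log2 depending on the class. As levels are divided by them, ventilation log2 ratios moved by these amounts in the opposite direction, and 85 of 85 calls were kept.

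Directions turned in 19 cases, given as log2 ratios, and the cause was not tested. Without upper limits they were -0.22 for Areg in the alveolar type II class and 0.33 in interstitial macrophages or dendritic cells (aged over young, nonventilated), 1.00 for Egfr in the alveolar type II class (aged ventilation) and 0.0049 for Erbb3 there (aged over young, ventilated). Without those limits the alveolar type II class also took in the ciliated-like cluster of 121 cells. Its values there thus come from a different mix of cells. At resolution 0.5 Nrg1 in the alveolar type II class gave -0.50 between nonventilated libraries and 2.60 for aged ventilation. Thinned cells gave 1.05 for Areg in alveolar macrophages, -0.62 in monocytes and -0.22 in neutrophils and 0.059 for Erbb3 in the alveolar type II class (all aged over young, ventilated), and -0.52 for Areg in neutrophils and 0.0068 for Nrg1 in the alveolar type II class (aged ventilation). With 5% of each sum taken as background, Egfr in general capillary cells gave -0.12 and Hbegf in monocytes -0.35 (young ventilation) and -0.17 (aged ventilation). Without the cell that held most UMIs, Areg gave -0.38 in basophils and -0.77 in fibroblasts between nonventilated libraries, and 1.23 and 2.46 for aged ventilation.

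The alveolar type I, alveolar type II and few-UMI fibroblast classes had no match at a mitochondrial limit of 5%. Few-UMI fibroblasts also had none with the lower UMI limit or with members and lists left out of the clustering. Without upper limits the 66 basophils were named as cells of few UMIs and so were not matched. These gave no values. No paired analysis was possible because each group was 1 library.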
